A study of Homo sapiens with 8 samples.

Results

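Respiratory chain assembly factors are proteins that help build the complexes of the mitochondrial inner membrane but do not remain in the finished enzymes. The 47 genes described here were chosen by symbol from a list of assembly factors of complexes I to V, and all 47 were among the 15852 genes listed in the deposited counts. The cells were KYSE150, an established human line from a squamous cell carcinoma of the esophagus, and polyadenylated RNA was read. There were 4 libraries of ShBOLA3-L genotype (written shBOLA3-L here), a knockdown of the BOLA3-L isoform, and 4 of Control genotype, and the labels give no treatment for either group. BOLA3 encodes a mitochondrial protein that takes part in passing iron-sulfur clusters to recipient proteins. How the knockdown cells were selected, whether as 1 clone or as a pool, is not stated in the labels.

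The respiratory chain passes electrons from NADH and succinate through complexes I, II, III and IV to oxygen, and complex V uses the resulting proton gradient to make ATP. Subunits of these complexes are made in the cytosol and in mitochondria, and dedicated factors insert them into the membrane, fit them with iron-sulfur clusters, flavin, heme and copper, and hold partly built modules together. Loss of single assembly factors is a known cause of inherited mitochondrial disease.

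The libraries held 31178036 to 35147860 counts, at which 3 counts correspond to 0.0851 to 0.0969 CPM (counts scaled to a common library size, with TMM factors). BOLA3 itself was lower in every shBOLA3-L library, at 6.05, 6.63, 6.33 and 7.29 CPM in shBOLA3-L replicates 1 to 4, against 21.6, 19.1, 20.5 and 21.8 CPM in the controls (31.7% of the control mean; edgeR log2 change -1.66, SE 0.0821, adjusted p = 6.9e-11). An exact two-sided permutation test of its mean level gave p = 0.0286, the smallest that 70 assignments allow. The table has 1 row for BOLA3, so its isoforms could not be told apart. shBOLA3-L replicate 1 stood apart from the other libraries of its group, with a chi-square per degree of freedom of 16.7 to 19.4 against each of them, where all other pairs within a group gave 3.01 to 4.52, so results are also given without it. Of the squamous epithelial markers 7 of 7 were detected and all 7 fell, with a summed level of 2650 to 3007 CPM in shBOLA3-L libraries and 4344 to 4390 CPM in control libraries. The 6 fibroblast markers summed to 4.25 to 7.00 CPM in shBOLA3-L and 9.84 to 14.7 CPM in control libraries, with 5 of them below 1 CPM in every library. Of 5 leukocyte markers 4 were listed, at 73.9 to 79.4 CPM in shBOLA3-L and 77.6 to 84.5 CPM in control libraries in sum, with PTPRC, CD3E and CD14 below 1 CPM. The 5 endothelial markers summed to 1.96 to 2.56 CPM in shBOLA3-L and 1.00 to 1.91 CPM in control libraries, with PECAM1, VWF, KDR and TEK below 1 CPM. Most of the leukocyte sum was CD68, with means of 75.9 CPM in shBOLA3-L and 80.8 CPM in control libraries. Likewise COL1A1 (4.80 and 11.7 CPM) made up most of the fibroblast sum, and CDH5 (1.71 and 0.993 CPM) most of the endothelial sum. The part of these marker shifts in the values below was not tested. In a bulk sample fewer cells of a type and less RNA per cell cannot be told apart. Nothing in the labels says that the libraries of a group came from separate cultures, and p-values then measure only the spread between these libraries, which may be technical.

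Of the 46 assembly factors with enough counts to test, 9 rose in shBOLA3-L cells, 0 fell and 37 did not pass the test (edgeR quasi-likelihood test, Benjamini-Hochberg adjusted p under 0.05 over 11841 genes). The 9 that rose make up 19.6% of the tested factors, beside 15.0% of all tested genes called higher, 15.6% called lower and 30.7% called in either direction. At an unadjusted p under 0.05 there were 10 higher and 3 lower factors. DESeq2 called 9 factors higher and 0 lower, where it called 14.7% of all genes higher, 15.3% lower and 30.0% in either direction. The changes were small: the 9 log2 changes ran from 0.13 to 0.37, which is 9.10% to 29.0% above control. Over all tested factors the median log2 change was 0.02, with 26 positive and 20 negative, and over all tested genes it was 0.00; the median absolute log2 change was 0.08 for the factors and 0.11 for all genes. Without shBOLA3-L replicate 2, control replicate 1 or control replicate 2 the number that rose was 5 each time. Those fits also called fewer of all genes in either direction, 2991, 2933 and 2841 in that order, against 3630 with all libraries.

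The factors that rose came from complexes I, III, IV and V. They were 1 of 14 tested for complex I (NDUFAF5), 0 of 4 for complex II, 2 of 6 for complex III (TTC19 and LYRM7), 5 of 19 for complex IV (SCO1, COX15, COX14, COX18 and COA5) and 1 of 3 for complex V (ATPAF1). The median log2 change was 0.01 for complex I, 0.07 for complex II, 0.08 for complex III, -0.00 for complex IV and 0.13 for complex V. Without shBOLA3-L replicate 1 the same 9 factors rose, together with NDUFAF1, and COX20 fell, beside 21.2% of all genes called higher, 21.5% called lower and 42.7% in either direction in that fit. There the log2 change was 0.17 for SCO1 (adjusted p = 5.9e-06), 0.22 for NDUFAF5 (0.0110), 0.19 for COX14 (0.0161), 0.17 for COA5 (0.0163), 0.21 for COX18 (0.0195) and 0.11 for ATPAF1 (0.0269), with the adjusted p in brackets.

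**Figure D1:**
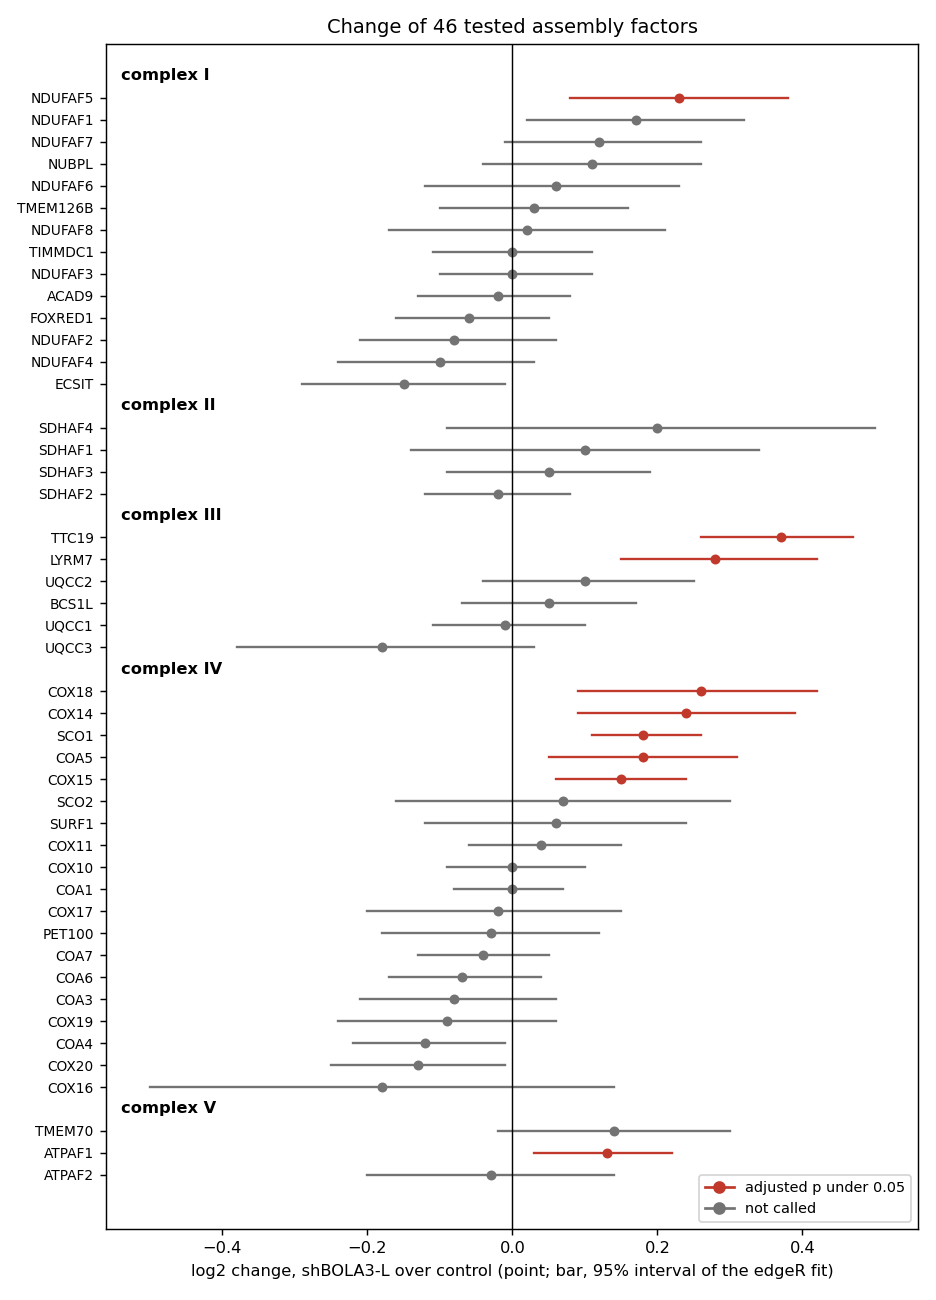
The log2 change of each tested assembly factor in shBOLA3-L against control cells (x axis) is plotted by complex (rows), with bars for the 95% confidence interval and colour for the call. The 9 factors called higher lie between 0.13 and 0.37, and among the other factors the intervals of NDUFAF1, ECSIT, COA4 and COX20 end just short of 0 while the rest include it.

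The bases upstream of 5 factors that rose are shown: the 3 most firmly called, and the others of the 9 that hold an ETS core. The windows were thus partly picked for holding that core. They are the 250 bases before the first listed start in RefSeq, on GRCh38.p14. They lie at chr17:15999574-15999823 (plus strand) for TTC19, chr5:131170694-131170943 (plus strand) for LYRM7, chr17:10697534-10697783 (minus strand) for SCO1, chr10:99732128-99732377 (minus strand) for COX15 and chr2:98608513-98608762 (minus strand) for COA5. Each is written 5′ to 3′ on the gene's strand, and capitals mark a match, on either strand, to CCGGAAG, the core bound by transcription factors of the ETS family.
TTC19: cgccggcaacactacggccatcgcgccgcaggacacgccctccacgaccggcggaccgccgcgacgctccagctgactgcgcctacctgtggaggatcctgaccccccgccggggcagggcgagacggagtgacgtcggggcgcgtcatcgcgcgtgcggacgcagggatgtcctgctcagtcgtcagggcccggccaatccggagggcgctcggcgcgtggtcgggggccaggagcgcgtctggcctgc
LYRM7: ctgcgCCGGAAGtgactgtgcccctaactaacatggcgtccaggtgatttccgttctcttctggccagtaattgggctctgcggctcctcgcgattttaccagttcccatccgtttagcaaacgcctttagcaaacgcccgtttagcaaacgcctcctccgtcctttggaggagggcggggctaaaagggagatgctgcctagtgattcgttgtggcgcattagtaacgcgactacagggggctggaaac
SCO1: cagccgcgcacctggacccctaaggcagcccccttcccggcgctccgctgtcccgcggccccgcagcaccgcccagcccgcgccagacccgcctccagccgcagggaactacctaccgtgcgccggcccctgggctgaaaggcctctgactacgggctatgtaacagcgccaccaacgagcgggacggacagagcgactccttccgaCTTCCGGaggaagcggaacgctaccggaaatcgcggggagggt
COX15: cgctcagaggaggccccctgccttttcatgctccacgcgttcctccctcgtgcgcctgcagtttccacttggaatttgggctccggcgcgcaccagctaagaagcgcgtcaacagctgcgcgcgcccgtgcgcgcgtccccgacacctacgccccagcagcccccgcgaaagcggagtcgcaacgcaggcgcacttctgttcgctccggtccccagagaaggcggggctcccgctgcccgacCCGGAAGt
COA5: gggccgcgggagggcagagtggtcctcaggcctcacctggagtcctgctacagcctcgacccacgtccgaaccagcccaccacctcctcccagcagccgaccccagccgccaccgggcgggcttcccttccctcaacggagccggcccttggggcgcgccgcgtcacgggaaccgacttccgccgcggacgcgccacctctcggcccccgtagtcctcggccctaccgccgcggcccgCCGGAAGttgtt

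The ETS core was found in 4 of the 9 factors that rose. It began at position -245 from the listed start in LYRM7, -43 in SCO1, -8 in COX15 and -12 in COA5. TTC19, NDUFAF5, COX14, COX18 and ATPAF1 lacked the ETS core. It was found in 12 of the 41 assembly factors matched in the table (29.3%), in 1611 of 9615 matched tested genes (16.8%) and in 2407 of 27305 promoters of the whole table (8.82%), in windows of the same length. The core GCATGCGC of nuclear respiratory factor NRF1, searched on both strands, was found in 4 of the 41 factors (COX17, COX18, SDHAF2 and UQCC2; 9.76%), in 4.95% of tested genes and in 2.81% of the table. Of the 9 that rose only COX18, not shown here, held the NRF1 core. Its window (chr4:73069717-73069966, minus strand) partly overlaps the gene coordinates given for COX18 below, which end at 73069759. Neither core contains the other, and a match describes letters and is not a site. Whether either core had a part in the changes was not tested.

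Complex III gave the steepest change. TTC19, an inner membrane protein that clears fragments of the Rieske iron-sulfur protein from complex III, had 127, 119, 107 and 109 CPM in shBOLA3-L replicates 1 to 4 and 88.9, 89.3, 89.9 and 89.4 CPM in control replicates 1 to 4. Every shBOLA3-L library was above every control, and the controls lay close together. The means were 115 ± 9.16 CPM in shBOLA3-L cells and 89.4 ± 0.407 CPM in controls (SD, n = 4 each), a log2 change of 0.37 (SE 0.0494, 95% interval 0.26 to 0.47, adjusted p = 2.0e-05). Without shBOLA3-L replicate 1, the highest library, the log2 change was 0.32 with an adjusted p of 2.2e-10, and the call held in all 19 alternatives run. TTC19 lies on chromosome 17 (GRCh38.p14, 15999824 to 16045015, plus strand), where 3.6% of its exon bases overlap ZSWIM7 on the opposite strand. ZSWIM7 also rose, to 12.2 ± 0.590 CPM in shBOLA3-L against 9.66 ± 0.645 CPM in control cells (log2 change 0.34, adjusted p = 0.00384). Whether reads were counted by strand is not stated in the labels, so reads of the shared bases cannot be assigned.

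LYRM7 (chromosome 5, 131170944 to 131205428, plus strand) binds the Rieske protein in the matrix and holds it before it joins complex III. It measured 40.3, 37.8, 37.7 and 34.2 CPM in shBOLA3-L libraries and 30.5, 30.1, 28.6 and 33.8 CPM in control libraries. The lowest shBOLA3-L library and the highest control were close, yet the groups did not overlap. The log2 change was 0.28 (SE 0.0634, adjusted p = 0.00218), it was 0.25 without shBOLA3-L replicate 1 (adjusted p = 0.000221), and the call held in all 19 alternatives. BCS1L, the ATPase that then moves the Rieske protein across the membrane, had 51.3 ± 3.37 CPM in shBOLA3-L and 49.6 ± 2.92 CPM in control cells and did not pass the test (log2 change 0.05, adjusted p = 0.548). UQCRFS1, the Rieske protein itself, chosen after its values were seen, had 94.1 ± 3.54 CPM in shBOLA3-L and 98.2 ± 1.88 CPM in control cells (log2 change -0.06, adjusted p = 0.294).

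The cytochrome b factors of complex III did not pass the test. UQCC1 and UQCC2, which bind newly made cytochrome b, had log2 changes of -0.01 and 0.10 (adjusted p = 0.951 and 0.266). UQCC3, which acts on the same intermediate, measured 9.13, 12.5, 12.8 and 12.0 CPM in shBOLA3-L and 12.7, 13.9, 14.0 and 12.2 CPM in control libraries. Its lowest value was in shBOLA3-L replicate 1, and the log2 change of -0.18 became -0.08 without that library (adjusted p = 0.179 and 0.438).

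**Figure D2:**
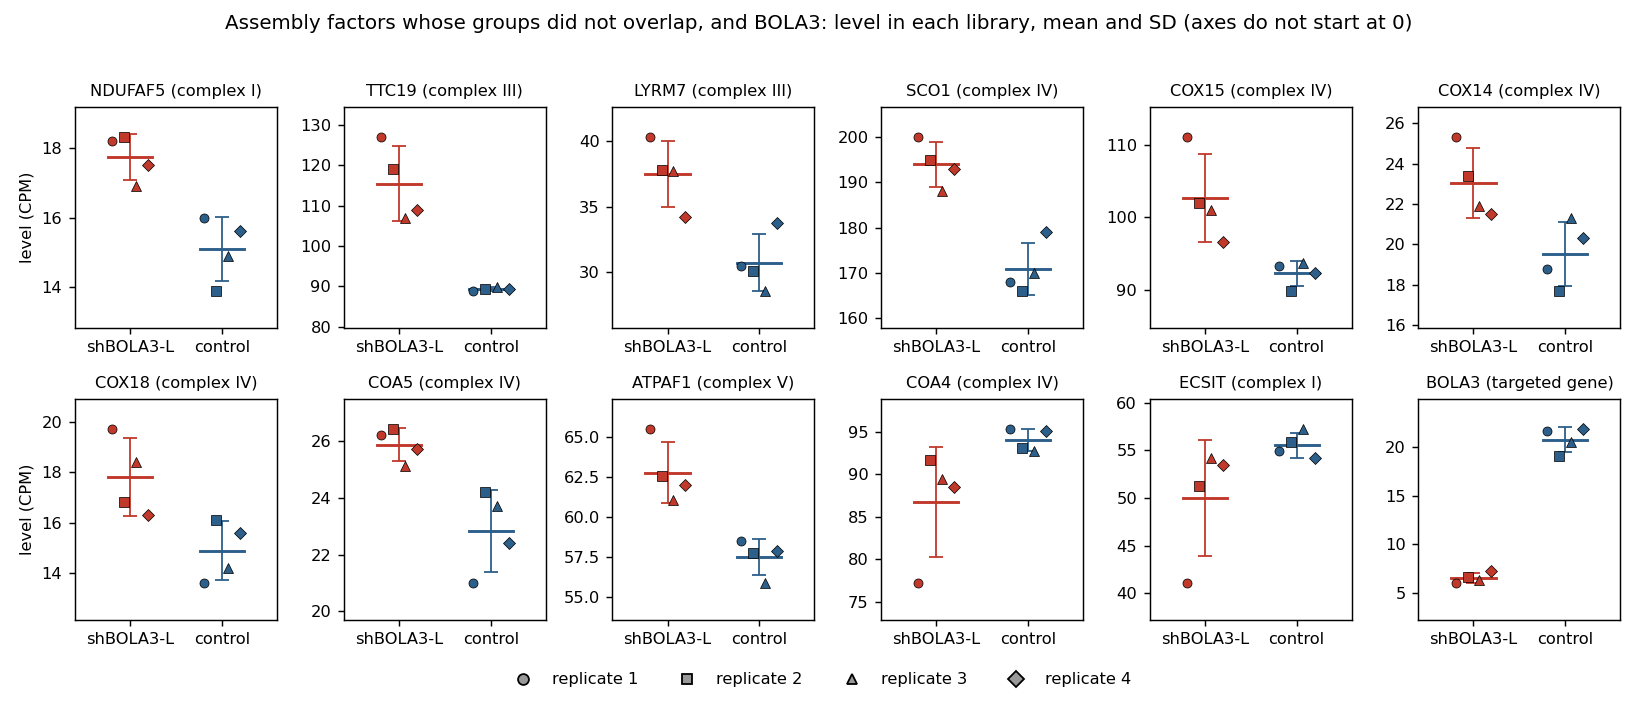
Levels in CPM (y axis, which does not start at 0) in each library, with lines for the mean and SD of 4 libraries, are plotted for the 11 assembly factors whose groups did not overlap and for BOLA3. Marker shapes give the replicate number. The 9 factors that rose have shBOLA3-L above control, COA4 and ECSIT have it below with shBOLA3-L replicate 1 lowest, and BOLA3 is at 31.7% of control.

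Complex IV, cytochrome c oxidase, had the most factors tested and the most that rose, 5 of 19 (26.3%, beside 15.0% of all tested genes). The share that rose was 33.3% for complex III and 33.3% for complex V. SCO1 (chromosome 17, 10672474 to 10697533, minus strand), a copper chaperone that delivers copper to subunit COX2, had 200, 195, 188 and 193 CPM in shBOLA3-L libraries and 168, 166, 170 and 179 CPM in controls. All shBOLA3-L libraries were above all controls. The log2 change was 0.18 (SE 0.0372, 95% interval 0.11 to 0.26, adjusted p = 0.00105) and held in all 19 alternatives. SCO2, its partner in copper delivery, had 8.11 ± 1.17 CPM in shBOLA3-L and 7.73 ± 0.380 CPM in control cells and did not pass the test (log2 change 0.07, adjusted p = 0.657; 0.17 and 0.191 without shBOLA3-L replicate 1). In SCO2 55% of transcript windows also occur in transcripts of other genes, TYMP and U62317.2, so its value is uncertain. The other copper factors, COX11, COX16, COX17, COX19 and COA6, had log2 changes of 0.04, -0.18, -0.02, -0.09 and -0.07, none past the threshold.

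Heme A is made from heme B in sequence by COX10 and COX15. COX15 (chromosome 10, 99694293 to 99732127, minus strand), which makes heme A from heme O, measured 111, 102, 101 and 96.6 CPM in shBOLA3-L and 93.3, 89.9, 93.7 and 92.3 CPM in control libraries. Every shBOLA3-L library was above every control. The log2 change was 0.15 (SE 0.0447, adjusted p = 0.0164); it was 0.11 without shBOLA3-L replicate 1 (adjusted p = 0.00711), and without control replicate 2 it missed the threshold (adjusted p = 0.0538). Of its exon bases 25.6% overlap AL133353.2 on the same strand. COX10, which makes heme O, had 57.2 ± 1.83 CPM in shBOLA3-L and 57.1 ± 0.616 CPM in control cells (log2 change 0.00, 95% interval -0.09 to 0.10). PET117, whose yeast counterpart supports heme A synthesis by Cox15, was not tested: it had 1 to 8 counts a library, and 62.4% of its exon bases overlap KAT14, which rose (33.3 ± 0.721 CPM in shBOLA3-L and 25.8 ± 0.639 CPM in control cells).

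Of the 6 factors that ready COX1 and COX2, the catalytic core subunits, 2 rose (33.3%, beside 15.0% of all tested genes) and 4 did not pass the test. COX14 (chromosome 12, 50112236 to 50120453, plus strand), an early partner of newly made COX1, had 25.3, 23.4, 21.9 and 21.5 CPM in shBOLA3-L and 18.8, 17.7, 21.3 and 20.3 CPM in control libraries. The groups did not overlap but came close, with shBOLA3-L replicate 4 just above control replicate 3. Its log2 change was 0.24 (SE 0.0726, adjusted p = 0.0180), and the call was lost without shBOLA3-L replicate 2, control replicate 1 or control replicate 2 (adjusted p from 0.0503 to 0.0752). COX18 (chromosome 4, 73052362 to 73069759, minus strand), which moves the tail of COX2 across the inner membrane, had 19.7, 16.8, 18.4 and 16.3 CPM in shBOLA3-L and 13.6, 16.1, 14.2 and 15.6 CPM in control libraries. These groups did not overlap but nearly touched. Its log2 change was 0.26 (SE 0.0793, adjusted p = 0.0186), and the call was lost (adjusted p from 0.0533 to 0.0718) without shBOLA3-L replicate 3, control replicate 1 or control replicate 3.

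COX20, a chaperone of newly inserted COX2 that acts beside COX18, is given for its dependence on a single library and was chosen after its values were seen. It measured 37.2, 32.7, 32.3 and 33.3 CPM in shBOLA3-L and 36.5, 37.9, 38.0 and 35.9 CPM in control libraries. The groups overlapped only through shBOLA3-L replicate 1, the highest of its group. The log2 change was -0.13 (SE 0.0565, adjusted p = 0.0895) in all libraries and -0.18 (adjusted p = 0.00355) without that library. Of its exon bases 72% overlap HNRNPU on the opposite strand, and HNRNPU fell (572 ± 10.5 CPM in shBOLA3-L against 620 ± 20.4 CPM in control cells, log2 change -0.12, adjusted p = 0.0117), so the counts of COX20 are uncertain. SURF1, COA1 and COA3, which act on COX1, had log2 changes of 0.06, -0.00 and -0.08 and did not pass the test. For SURF1 the log2 change was 0.15 without shBOLA3-L replicate 1 (adjusted p = 0.0552).

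The remaining complex IV factors were COA4, COA5, COA7 and PET100. COA5 (chromosome 2, 98599314 to 98608512, minus strand) had 26.2, 26.4, 25.1 and 25.7 CPM in shBOLA3-L and 21.0, 24.2, 23.7 and 22.4 CPM in control libraries, without overlap. Its log2 change was 0.18 (SE 0.0606, adjusted p = 0.0309), lost without shBOLA3-L replicates 2 or 4 or control replicates 1 or 4 (adjusted p from 0.0528 to 0.112). COA4, a cysteine-rich protein of the intermembrane space, was lower in shBOLA3-L cells, at 77.2, 91.7, 89.4 and 88.5 CPM in shBOLA3-L and 95.3, 93.1, 92.8 and 95.1 CPM in control libraries. All shBOLA3-L values were below the controls, with replicate 1 the lowest, but the change did not pass the test (log2 change -0.12, adjusted p = 0.0829; -0.06 without shBOLA3-L replicate 1, adjusted p = 0.134). With offsets corrected for GC content it did (adjusted p = 0.0381), but not with those offsets and shBOLA3-L replicate 1 left out (log2 change -0.06, adjusted p = 0.149). COA7 and PET100 had log2 changes of -0.04 and -0.03.

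Of the 14 complex I factors, NDUFAF5 alone passed the test. NDUFAF5 (chromosome 20, 13785028 to 13821580, plus strand), a hydroxylase of an arginine in subunit NDUFS7, had 18.2, 18.3, 16.9 and 17.5 CPM in shBOLA3-L and 16.0, 13.9, 14.9 and 15.6 CPM in control libraries, without overlap. The log2 change was 0.23 (SE 0.0694, 95% interval 0.08 to 0.38, adjusted p = 0.0169), and the call was lost (adjusted p 0.0532 and 0.0625) without shBOLA3-L replicate 2 or control replicate 2. NDUFAF8, which stabilizes NDUFAF5, did not pass the test, with 16.5, 23.8, 22.7 and 22.9 CPM in shBOLA3-L and 22.2, 22.0, 21.4 and 19.2 CPM in control libraries. Its replicate 1 was far below the others of its group, and the log2 change of 0.02 was 0.13 without it (adjusted p = 0.890 and 0.0947). The other Q-module factors NDUFAF3, NDUFAF4, NDUFAF6 and NDUFAF7 had log2 changes of 0.00, -0.10, 0.06 and 0.12, none past the threshold.

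ECSIT, part of the complex that assembles the membrane arm of complex I, measured 41.1, 51.3, 54.2 and 53.5 CPM in shBOLA3-L and 54.9, 55.9, 57.2 and 54.2 CPM in control libraries. The groups did not overlap, but the highest shBOLA3-L and the lowest control library were equal after rounding, and shBOLA3-L replicate 1 was far below the rest. The change did not pass the test (log2 change -0.15, 95% interval -0.29 to -0.01, adjusted p = 0.104; -0.07 without shBOLA3-L replicate 1, adjusted p = 0.209), and with offsets corrected for GC content it did (adjusted p = 0.00287), also with shBOLA3-L replicate 1 left out (log2 change -0.13, adjusted p = 0.00881). NDUFAF1, a partner of ECSIT chosen after its values were seen, had 16.9 ± 0.915 CPM in shBOLA3-L and 15.0 ± 1.02 CPM in control cells (log2 change 0.17, adjusted p = 0.0894; 0.20 and 0.0212 without shBOLA3-L replicate 1). ACAD9, TMEM126B and TIMMDC1 of the same assembly module had log2 changes of -0.02, 0.03 and -0.00 and did not pass the test. NUBPL, which carries iron-sulfur clusters to complex I, had 27.5 ± 2.91 CPM in shBOLA3-L and 25.5 ± 1.17 CPM in control cells (log2 change 0.11, adjusted p = 0.265; 0.04 and 0.614 without shBOLA3-L replicate 1). The late-acting factors NDUFAF2 and FOXRED1 had log2 changes of -0.08 and -0.06.

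No complex II factor passed the test. SDHAF1 and SDHAF3, which take part in fitting iron-sulfur clusters to SDHB, had log2 changes of 0.10 and 0.05 (adjusted p = 0.561 and 0.610). SDHAF1 had 7.16, 10.9, 9.64 and 10.8 CPM in shBOLA3-L and 9.47, 8.37, 9.62 and 8.63 CPM in control libraries, with replicate 1 the lowest of all, and its log2 change without that library was 0.22 (adjusted p = 0.0583). SDHAF2 and SDHAF4, which act on the flavoprotein SDHA, had log2 changes of -0.02 and 0.20 (adjusted p = 0.772 and 0.287). SDHAF4 measured 5.48, 5.16, 4.85 and 5.47 CPM in shBOLA3-L and 4.56, 3.31, 5.31 and 4.98 CPM in control libraries, with control replicate 2 the lowest, and its interval ran from -0.09 to 0.50.

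Of the complex V factors ATPAF1 (chromosome 1, 46632737 to 46668557, minus strand), which binds the beta subunit of the catalytic head, rose least among the 9. It had 65.5, 62.6, 61.1 and 62.0 CPM in shBOLA3-L and 58.5, 57.8, 55.9 and 57.9 CPM in control libraries, without overlap. The log2 change of 0.13 (SE 0.0441, adjusted p = 0.0375) lost its call in 8 alternatives, among them the exclusion of any library except shBOLA3-L replicates 1 and 3 (adjusted p from 0.0560 to 0.119). ATPAF2, its counterpart for the alpha subunit, and TMEM70, which helps the c ring form, had log2 changes of -0.03 and 0.14 (adjusted p = 0.788 and 0.181).

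Groups did not overlap for 11 of the 46 factors (23.9%; 30.2% of all tested genes), of which 9 were higher (14.6% of all tested genes) and 2 lower (15.6% of all tested genes) in shBOLA3-L cells. For the 37 factors that did not pass the test, 95% intervals of the log2 change lay within 0.30 of 0 in 32, and the widest reached -0.50 (COX16) and 0.50 (SDHAF4). The coefficient of variation between libraries had a median of 6.52% in shBOLA3-L and 5.75% in control cells over the factors.

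**Figure D3:**
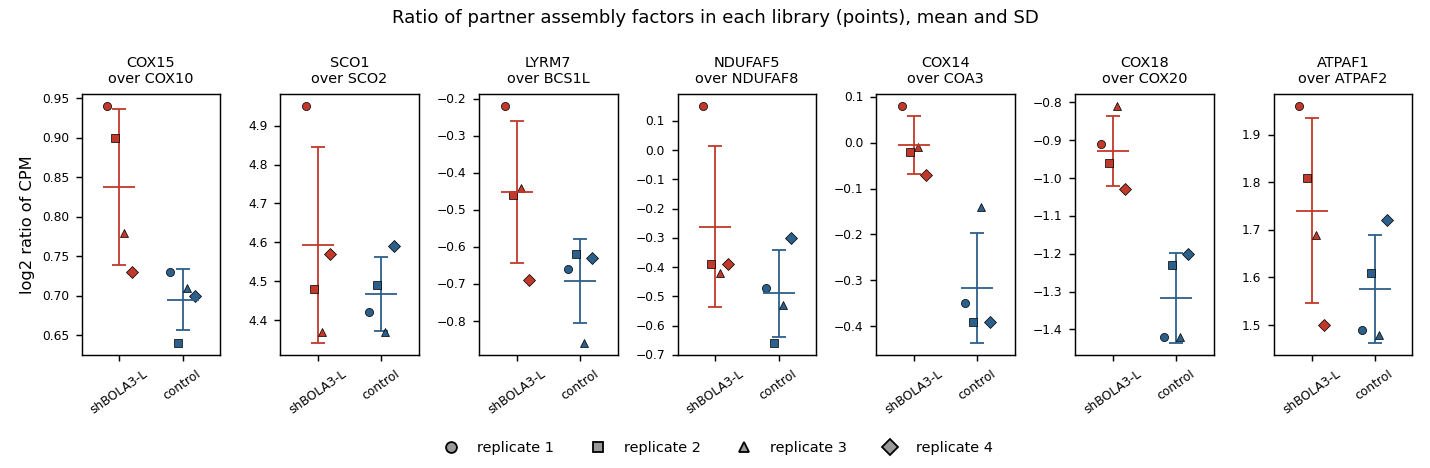
The log2 ratio of CPM in 7 pairs of assembly factors that act in the same step (y axis) is plotted in each library, with the mean and SD of 4 libraries. In COX15/COX10, COX14/COA3 and COX18/COX20 the shBOLA3-L libraries lie above the controls, and in the other 4 pairs the groups overlap. The first factor of each pair was picked from those that rose.

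Ratios of factors that act in the same step were compared within each library for 7 pairs, chosen after the values were seen. The log2 ratio of COX18 to COX20 was -0.91, -0.96, -0.81 and -1.03 in shBOLA3-L and -1.42, -1.23, -1.42 and -1.20 in control libraries. That of COX14 to COA3 was 0.08, -0.02, -0.01 and -0.07 in shBOLA3-L and -0.35, -0.39, -0.14 and -0.39 in control libraries. In both pairs all shBOLA3-L libraries were higher, as they were in COX15 to COX10, where the lowest shBOLA3-L and the highest control value were both 0.73 after rounding. The differences were 0.39, 0.31 and 0.14, each with an exact two-sided permutation p of 0.0286, the smallest that 70 assignments allow. After adjustment over 7 pairs this p was 0.0667, so none passed, and no pair alone could have passed at that smallest p. The overlap of COX20 with HNRNPU, and of COA3 with WNK4 on the opposite strand (42.5% of exon bases), bears on the counts behind the COX18 and COX14 ratios. LYRM7 to BCS1L (0.24), NDUFAF5 to NDUFAF8 (0.23), ATPAF1 to ATPAF2 (0.16) and SCO1 to SCO2 (0.13) had overlapping groups (adjusted exact p from 0.200 to 0.543). Without shBOLA3-L replicate 1 the differences of these 4 pairs were 0.16 for LYRM7 to BCS1L, 0.09 for NDUFAF5 to NDUFAF8, 0.09 for ATPAF1 to ATPAF2 and 0.01 for SCO1 to SCO2, and those of the 3 pairs without overlap were 0.39, 0.29 and 0.11.

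**Figure D4:**
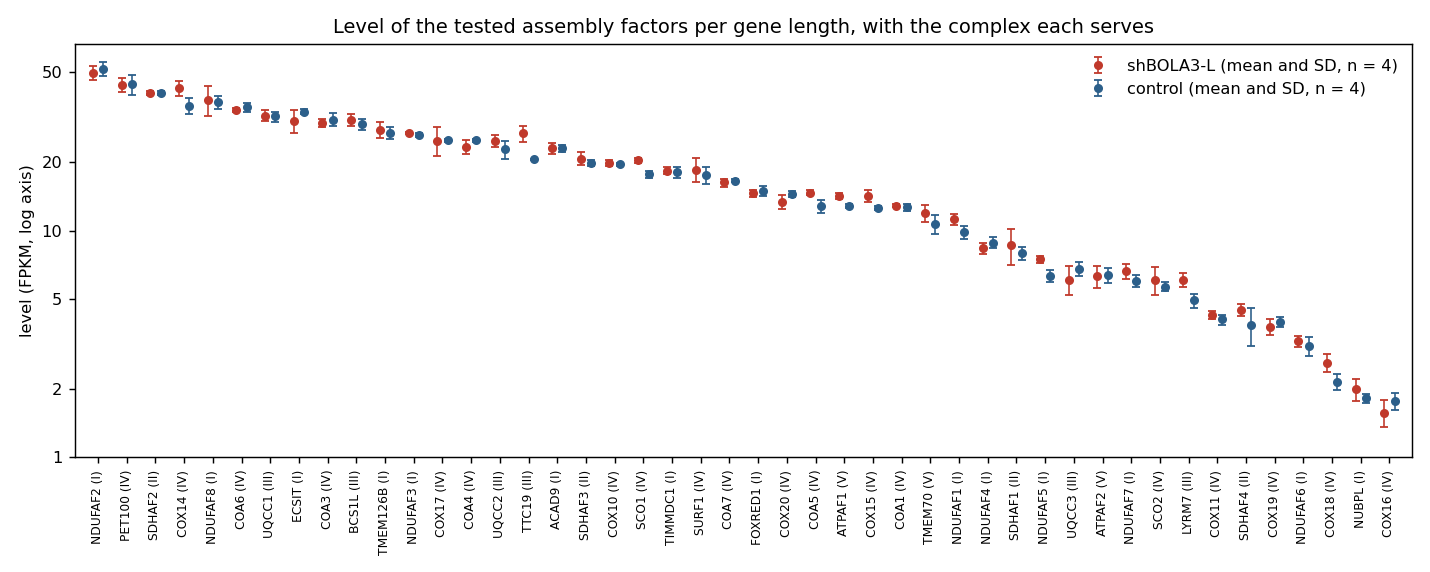
Mean FPKM of each tested assembly factor (y axis, log scale) in shBOLA3-L and control cells is plotted in order of level (x axis), with bars for the SD of 4 libraries. Levels run from 1.66 FPKM (COX16) to 50.8 FPKM (NDUFAF2), and the pairs of points lie close together.

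Levels per gene length, as FPKM from the authors, spanned a wide range. The median of the factors was 15.6 FPKM, beside 9.07 FPKM for all tested genes, and 31 of the 46 lay above that median of all genes. The most abundant was NDUFAF2, at 49.8 ± 3.73 FPKM in shBOLA3-L and 51.8 ± 3.58 FPKM in control cells (SD, n = 4 each). Of the transcript windows of NDUFAF2, 23.1% also occur in a processed pseudogene, so its level is uncertain. PET100 followed, at 43.9 ± 3.14 FPKM in shBOLA3-L and 44.2 ± 4.45 FPKM in control cells, then SDHAF2, at 40.5 ± 0.934 FPKM in shBOLA3-L and 40.5 ± 1.00 FPKM in control cells. Of the exon bases of SDHAF2, 30.5% overlap AP003108.2 on the same strand, so its level is uncertain. COX14 stood above SDHAF2 in shBOLA3-L cells (42.6 ± 3.34 FPKM) and below NDUFAF8 in control cells (35.6 ± 2.91 FPKM). NDUFAF8 had 37.8 ± 5.81 FPKM in shBOLA3-L and 36.8 ± 2.35 FPKM in control cells.

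At the low end of the order, COX19, a copper factor, had 3.76 ± 0.301 FPKM in shBOLA3-L and 3.95 ± 0.217 FPKM in control cells. NDUFAF6 had 3.24 ± 0.173 FPKM in shBOLA3-L and 3.08 ± 0.293 FPKM in control cells. COX18, which rose, had 2.61 ± 0.238 FPKM in shBOLA3-L and 2.15 ± 0.173 FPKM in control cells. In both groups COX19, NDUFAF6 and COX18 lay apart from each other by more than the sum of their SDs. Below them NUBPL had 1.99 ± 0.217 FPKM in shBOLA3-L and 1.82 ± 0.0837 FPKM in control cells. COX16 had 1.57 ± 0.213 FPKM in shBOLA3-L and 1.76 ± 0.149 FPKM in control cells, and the pair did not lie apart by that measure in either group. Of the exon bases of COX16, 36% overlap SYNJ2BP-COX16 on the same strand, so its level and rank are uncertain. In CPM, which ignores gene length, NUBPL (27.5 in shBOLA3-L, 25.5 in control cells) stood above NDUFAF8 (21.5 and 21.2). The low rank of NUBPL thus rests on the gene length used by the authors. Both a factor among the 5 most abundant, COX14, and one among the 5 least abundant, COX18, rose.

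**Figure D5:**
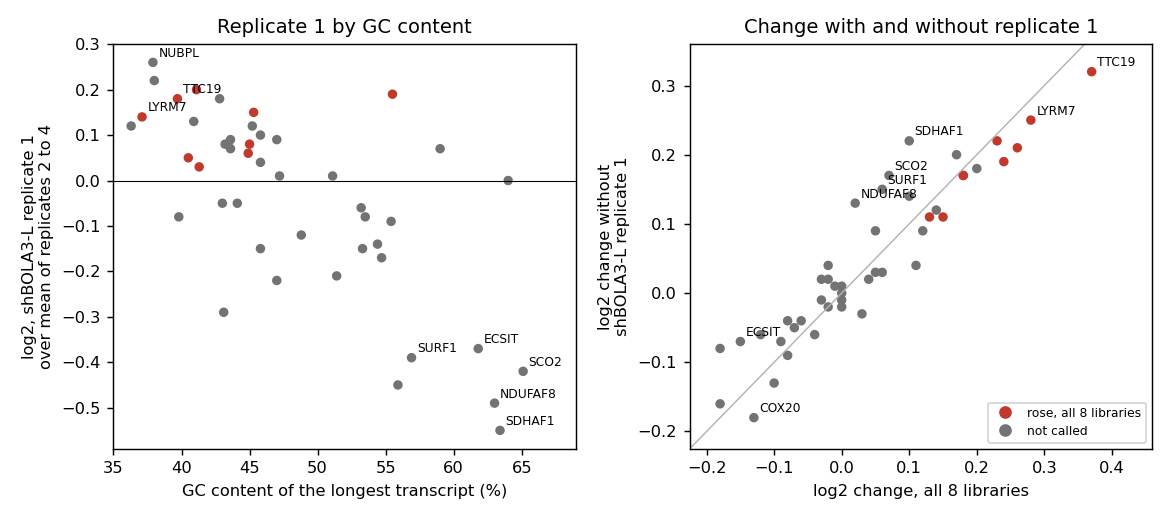
Left, the log2 level of shBOLA3-L replicate 1 over the mean of shBOLA3-L replicates 2 to 4 (y axis) is plotted against GC content of the longest transcript (x axis, percent) for 46 assembly factors. Right, the log2 change of each factor without shBOLA3-L replicate 1 (y axis) is plotted against that in all 8 libraries (x axis), with the line of equality. On the left SDHAF1 (-0.55) and 4 other labelled factors of high GC content lie low. NDUFAF3 (-0.00), COA3 (0.07) and COX14 (0.19), also of high GC content, do not. On the right COX20, SDHAF1, NDUFAF8, SCO2 and SURF1 lie farther from 0 without shBOLA3-L replicate 1.

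Deviations of shBOLA3-L replicate 1 ran against GC content, with exceptions. For the 46 factors, Pearson's r between the log2 level in that library over the mean of the other shBOLA3-L libraries and the GC content of the longest transcript was -0.70 (Spearman's rho -0.67), a description across genes that share a library, and over 11581 tested genes it was -0.57 (rho -0.70). The other 7 libraries, each set against the rest of its own group, gave r from -0.22 to 0.45 over the factors. For shBOLA3-L replicates 2 to 4 (0.45, 0.40 and 0.39) that rest includes replicate 1, so these values are not independent of it. SDHAF1 (-0.55), NDUFAF8 (-0.49), UQCC3 (-0.45), SCO2 (-0.42), SURF1 (-0.39) and ECSIT (-0.37) were the factors lowest in that library, at 55.9% to 65.1% GC, and NUBPL (0.26) and TMEM126B (0.22) the highest, at 37.9% and 38.0% GC. With offsets corrected for GC content, an alternative added after seeing the data, the same 9 factors rose and ECSIT, COX20 and COA4 fell (ECSIT and COX20 also with shBOLA3-L replicate 1 left out), beside 20.4% of all genes called higher, 20.9% called lower and 41.3% in either direction. The part of GC content in the changes of the factors was not tested further.

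Of 29 further assembly factors 28 were tested, and 3 rose (10.7%, beside 15.0% of all tested genes) and 1 fell (3.57%, beside 15.6%): DMAC1 (log2 change 0.19, adjusted p = 0.00132), TMEM186 (0.23, adjusted p = 0.00750) and COA8 (0.24, adjusted p = 0.0167) rose, and PNKD (-0.25, adjusted p = 0.00194) fell. Of the 79 nuclear-encoded subunits 17 rose (21.5%) and 2 fell (2.53%), beside 9 and 0 of the 46 assembly factors and the same 15.0% and 15.6% of all tested genes. By complex, subunits that rose numbered 8 of 37 for complex I, 2 of 4 for complex II, 2 of 9 for complex III, 3 of 11 for complex IV and 2 of 18 for complex V. Without shBOLA3-L replicate 1, 32 subunits rose (40.5%, beside 21.2% of all genes) and 4 fell (5.06%, beside 21.5%). With offsets corrected for GC content, 25 rose (31.6%, beside 20.4% of all genes) and 3 fell (3.80%, beside 20.9%). The 13 subunits encoded in mitochondrial DNA were sought by symbol and gene identifier. Of these 0 matched a gene in the deposited counts, so they could not be analysed. In the deposited annotation columns, 38 of the 47 assembly factors carry the term mitochondrion, 19 mitochondrial inner membrane, 10 mitochondrial matrix and 7 mitochondrial intermembrane space.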

How the data were processed

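Raw counts per gene of 15852 genes in 8 libraries (4 shBOLA3-L, 4 control) were deposited by the authors, together with FPKM values that the authors scaled to gene length and library total, per the file headers. All 110558 FPKM values above 0 equal scaled counts to within 1e-06, so they are not independent. Reads of 150 bases, paired, were filtered with fastp per the labels, and the build is hg38 per the submitters' processing notes; no aligner, counter or annotation is given in the sources used here.

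Counts were scaled by TMM, filtered with filterByExpr (11841 genes left) and tested in edgeR (quasi-likelihood F-test, robust), with p adjusted by Benjamini-Hochberg over all tested genes at 0.05. Levels are CPM over effective library size. A prior count of 2 entered the log2 CPM behind the GC correction and the correlation of same-numbered libraries, and was not set for the edgeR log2 changes. Partner ratios and the BOLA3 level were tested by exact permutation, two-sided. Alternatives were RLE and upper quartile scaling, no filter, a minimum of 1 CPM in 4 libraries, a replicate block, DESeq2, limma on FPKM in log2 with a pseudocount of 1 or 0.1 (at least 0.5 FPKM in 4 libraries, or no minimum), and each library left out. Offsets corrected for GC content (spline with 5 degrees of freedom per library, 97.8% of tested genes), with and without shBOLA3-L replicate 1, were added after seeing the data. GC content, exon overlap and shared 75-base windows come from GENCODE v29, and coordinates and promoters from RefSeq GRCh38.p14 (41 of 47 factors matched in the promoter table).

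The members and lists were chosen with earlier results of these data known. Named are all factors called, those with groups that do not overlap, any with a log2 change of 0.3 or more in size, and the 5 highest and 5 lowest by FPKM; of other lists up to 4 by smallest p. Depth was 31178036 to 35147860 counts, and 3 counts is the floor. The edgeR step was tested on simulated counts with known changes. Software was Python 3.11.15 with pandas 2.3.3, scipy 1.17.1, matplotlib 3.10.9 and numpy 2.4.6, and R 4.3.3 with DESeq2 1.42.0, edgeR 4.0.16 and limma 3.58.1.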

Additional observations from a re-analysis of the deposited data

Results flagged for a closer look

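Among 94 sets of 4 libraries (the 46 tested assembly factors and BOLA3 in each group), 4 held a library far from the other 3 by Dixon's criterion, and chance flags about 5% of sets. NDUFAF8 was at 16.5 CPM in shBOLA3-L replicate 1, against 22.7 to 23.8 CPM in the other shBOLA3-L libraries. SURF1 was at 18.4 CPM in the same library, against 23.6 to 24.5 CPM in the others. UQCC1 was at 89.7 CPM in shBOLA3-L replicate 2, where the others had 79.7 to 80.3 CPM. NUBPL was at 27.3 CPM in control replicate 4, where the other controls had 24.8 to 25.0 CPM.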

How the results depend on the processing

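Over 19 alternatives the number of all genes called stayed within 1.5 times of 3630 (2841 to 5081), and BOLA3 stayed lower and called (log2 change -1.71 to -1.56). TTC19, SCO1 and LYRM7 kept their calls in all 19. The number of assembly factors that rose was 5 to 10 with a library left out, and 8 to 10 in the other alternatives; the number that fell was 0 to 1 with a library left out, 3 with offsets corrected for GC content and 2 with those offsets and shBOLA3-L replicate 1 left out. DESeq2 gave the same 9 that rose. With replicate numbers as a block, 3392 genes were called and 8 of the 9 factors, ATPAF1 being lost (adjusted p = 0.0576); same-numbered libraries correlated between -0.0444 and 0.0876 in their deviations from group means, so the numbers were not taken to pair libraries. Among the factors named by rule, values without a call changed sign with a library left out for PET100 (-0.08 to 0.03) and NDUFAF8 (-0.03 to 0.13). Others near 0 also turned without shBOLA3-L replicate 1: TMEM126B (-0.03), ACAD9 (0.02), COX17 (0.04), UQCC1 (0.01) and ATPAF2 (0.02). COX18 also lost its call in limma without a minimum (adjusted p = 0.0518), and ATPAF1 without a filter on low counts (adjusted p = 0.0542). The cause was not tested. With 4 libraries a group, SE of 0.0372 to 0.153 limits what small changes can be detected; for COX16, the scarcest factor tested, the interval ran from -0.50 to 0.14.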
